A study of Mus musculus with 20 samples.

Results

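The genes described here are the subunits of the respiratory chain and of ATP synthase, together with cytochrome c, in cancer-associated fibroblasts (CAFs) of the mouse. Members were chosen by symbol: the 13 protein-coding genes of the mitochondrial genome and the nuclear genes of complexes I to V and cytochrome c, 101 of the 32285 genes in the table. Of these, 88 are nuclear: 37 subunits of complex I, 4 of complex II, 9 of complex III, 20 of complex IV, 17 of complex V and Cycs. The fit across all genes took 95 of them, since 6 nuclear members of complex IV did not reach 1 TPM (a length-scaled share of all transcripts) in 5 libraries. The rule uses symbols only and no threshold on a measured value, though it was set with earlier results of these data known.

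The respiratory chain sits in the inner mitochondrial membrane. Complexes I and II pass electrons from NADH and succinate to ubiquinone, complex III hands them to cytochrome c, and complex IV gives them to oxygen, while ATP synthase (complex V) uses the proton gradient that complexes I, III and IV build. Complexes I, III, IV and V each join subunits made from the small mitochondrial genome with subunits imported after translation in the cytosol. Complex II is wholly nuclear.

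The cells were immortalized primary murine CAFs, and polyadenylated RNA was sequenced in 5 libraries of each of 4 groups after 32 h. At 0.2 mM glutamine cells received 25 uM EIPA (an amiloride analogue that blocks sodium-proton exchange and macropinocytosis) or its DMSO vehicle, and at 4 mM glutamine they received 25 pg/mL IL-1a, an inflammatory cytokine, or vehicle. By the treatment protocol, DMSO was present in all 4 groups. The treatment protocol gives EIPA in mM and the sample titles in uM; the titles are followed. Whether replicates were separate cultures is not stated, so p-values cover the spread between these samples, which may be technical.

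TPM keeps no trace of sequencing depth, so the depth of the libraries is unknown and genes of a few TPM may rest on few reads. Of 12 fibroblast markers, 10 averaged at least 1 TPM; Vim ranged from 1465 to 3601 TPM and Fap did not exceed 0.31 TPM. The summed fibroblast markers ran from 2228 to 2526 TPM with EIPA, from 3537 to 4225 in the 0.2 mM vehicle, from 8019 to 10330 with IL-1a and from 9530 to 10600 in the 4 mM vehicle. The part of this gradient in the results below was not tested. The leukocyte marker Ptprc stayed at or below 0.01 TPM, the endothelial Pecam1 at or below 0.35 and the epithelial Epcam at or below 0.36. Other markers of these types were higher: 2 of 5 epithelial and 1 of 3 endothelial markers averaged at least 1 TPM. The epithelial Krt19 ran from 78.2 to 379.7 TPM, Krt18 averaged 10.3 TPM and the endothelial Kdr 4.95 TPM. The 4 mesothelial markers summed to between 94.8 and 592 TPM. The 5 leukocyte markers, 2 of which averaged at least 1 TPM, summed to 21.8 to 24.8 TPM with EIPA and 7.84 to 10.7 TPM in its vehicle. On the third principal component of all genes, 2 IL-1a libraries (replicates 1 and 5) and vehicle replicate 5 at 4 mM stood apart from the rest of their groups, and calls lost without them are named below.

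With EIPA at 0.2 mM glutamine all 13 mitochondrially encoded mRNAs fell, in a comparison in which 48.5% of the 12350 genes tested were called, 21.1% lower and 27.4% higher (limma, adjusted p under 0.05, the call rule throughout). Their log2 fold changes ran from -1.06 to -0.38 with a median of -0.72, against 0.02 for the median gene. None of the 13 overlapped between the groups, a pattern that 14.7% of all genes showed in that direction. mt-Nd1, a core membrane subunit of complex I, stood at 1914, 2102, 2032, 2082 and 2676 TPM with EIPA and at 4464, 4713, 4620, 4351 and 4193 TPM in the vehicle. All EIPA libraries thus lay well under all vehicle libraries, replicate 5 closest to them. The fall was -1.06 on the log2(TPM + 1) scale (SE 0.07, n = 5 against 5, limma adjusted p = 3.6e-10). mt-Nd3, another membrane subunit of complex I, fell by 1.03 (SE 0.09, adjusted p = 5.6e-09, limma). The other 5 mRNAs of complex I fell by 0.92 (mt-Nd5), 0.73 (mt-Nd4), 0.72 (mt-Nd4l), 0.65 (mt-Nd2) and 0.61 (mt-Nd6).

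The smallest of the 13 falls was that of mt-Co1, the catalytic subunit of complex IV that carries heme and copper. It measured 6645, 6701, 6436, 6751 and 7171 TPM with EIPA and 8789, 8908, 8732, 8254 and 9083 TPM in the vehicle. These groups were separate but nearer each other than those of mt-Nd1: the log2 fold change was -0.38 (95% interval -0.50 to -0.26, limma adjusted p = 3.2e-05), against an interval of -1.20 to -0.91 for mt-Nd1. mt-Co2, which takes electrons from cytochrome c, fell by 0.48 and mt-Co3 by 0.74. mt-Cytb, the only mitochondrially encoded subunit of complex III, fell by 0.82. The proton channel subunit mt-Atp6 and its short neighbour mt-Atp8 fell by 0.60 and 0.61. Under quantile normalisation, which forces all libraries onto one distribution, 11 of the 13 were called lower (24.5% of all genes lower and 23.1% higher in that fit). mt-Co1 stood at 0.01 (adjusted p = 0.91, limma) and mt-Atp8 also lost its call. The method gives a gene of unchanged rank an unchanged value, so a very abundant mRNA such as mt-Atp8 can hardly move. The lost call of mt-Atp8 is therefore not read as a result.

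**Figure D1:**
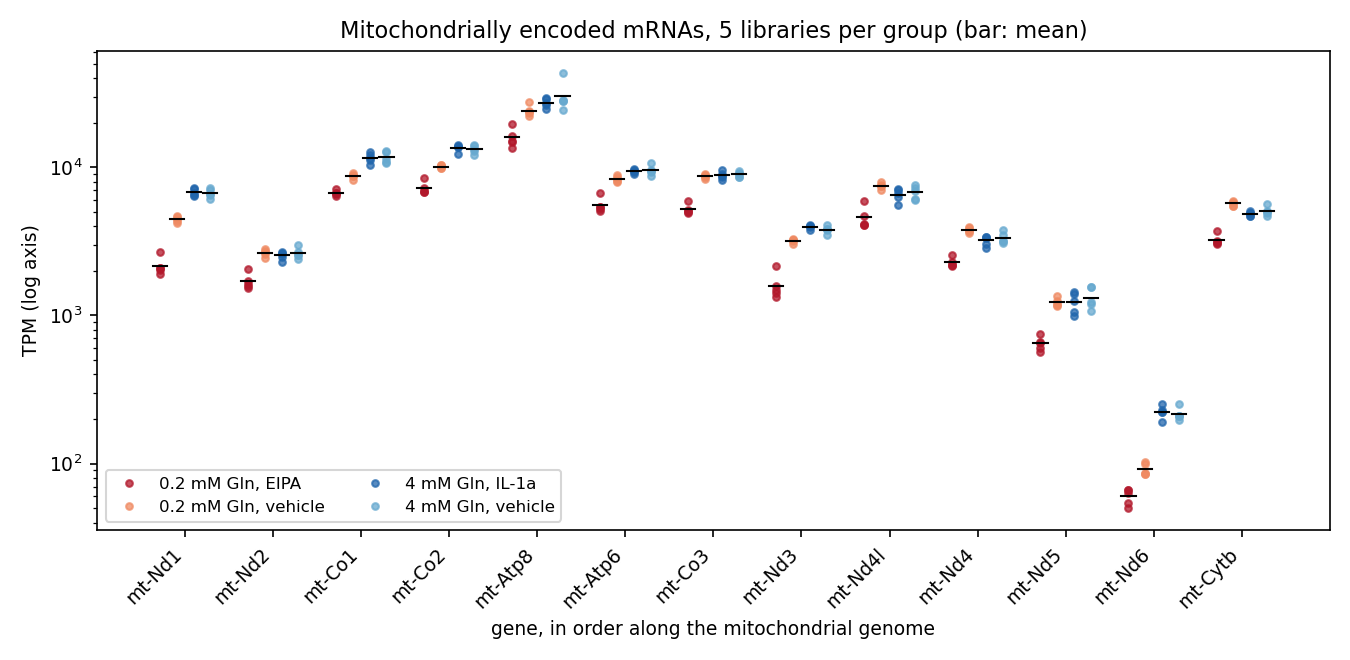
TPM on a log axis of the 13 mitochondrially encoded mRNAs, in the order of their genes, with each library as a point and each group mean as a bar. The EIPA libraries lie below the 0.2 mM vehicle libraries for all 13 genes, and mt-Nd6 separates the 0.2 mM from the 4 mM groups, with means of 92.0 and 216 TPM in the vehicle.

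Glutamine moved the same mRNAs unequally. In this comparison, 0.2 mM against 4 mM in vehicle, 73.3% of all genes were called (45.4% higher, 27.9% lower), and the median gene shifted by 0.14, so log2 values for it are given relative to that median gene, with p-values from the deposited TPM. It shares its 0.2 mM vehicle libraries with the EIPA comparison, so the 2 are not independent of each other. Of the 13 mRNAs 7 were called lower and 2 higher. With median-of-ratios scaling, which sets the median gene near 0, 8 were called lower and 0 higher, against 35.5% and 35.9% of all genes. Under quantile normalisation 3 were called lower and 3 higher (32.3% and 39.9% of all genes). The count of 2 higher also became 1 without the 3 libraries that stood apart, or without vehicle replicate 5 at 4 mM alone.

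mt-Nd6 showed the largest difference. It is the only mRNA encoded on the opposite strand from the other 12, at positions 13552 to 14070 of the mitochondrial chromosome (GRCm38), and its mRNA is known to lack the poly(A) tail by which these libraries were selected. It measured 102.9, 86.9, 84.9, 99.9 and 85.4 TPM at 0.2 mM and 211, 210, 252, 196 and 211 TPM at 4 mM. Every library at 0.2 mM lay below every library at 4 mM, with a relative log2 fold change of -1.36 (SE 0.09, n = 5 against 5, limma adjusted p = 1e-10). Its 3′ end overlaps mt-Nd5, and whether the counting used strand is not given in the sources used here, so reads of the overlap may be shared. If strand was not used, reads of RNA from the other strand elsewhere in the gene may also be counted to mt-Nd6. mt-Nd5 itself gave -0.23 (adjusted p = 0.46, limma, not called).

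mt-Nd1 followed with -0.72 (adjusted p = 3.1e-07, limma), from 4193 to 4713 TPM at 0.2 mM against 6141 to 7237 TPM at 4 mM, again with no overlap. mt-Co1 and mt-Co2 gave -0.55 and -0.53, both without overlap. mt-Nd3 gave -0.38 and was the fifth of the 13 whose groups did not overlap. Under quantile normalisation mt-Co2 (-0.05, limma adjusted p = 0.3) and mt-Nd3 (-0.19, 0.052) lost their calls. These 2 values are not relative to the median gene, which stood at 0.06 in that fit. The count of 5 without overlap stands beside 22.7% of all genes with lower, non-overlapping values. mt-Atp6 (-0.32) and mt-Atp8 (-0.44) were called lower, but each lost the call without vehicle replicate 3 at 4 mM (adjusted p = 0.063 and 0.1, limma), and mt-Atp8 also without vehicle replicate 1 at 0.2 mM (0.063). At the other end stood mt-Nd4, mt-Nd4l and mt-Cytb, at 0.04, 0.01 and 0.04, while mt-Nd2 and mt-Co3 gave -0.13 and -0.17 and were not called in the deposited TPM (mt-Co3 was called lower with median-of-ratios scaling). mt-Nd4 and mt-Cytb were called higher in the deposited TPM (limma adjusted p = 0.017 and 0.0069) and not called with median-of-ratios scaling. mt-Nd4 also lost its call without vehicle replicate 5 at 4 mM (adjusted p = 0.053, limma).

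**Figure D2:**
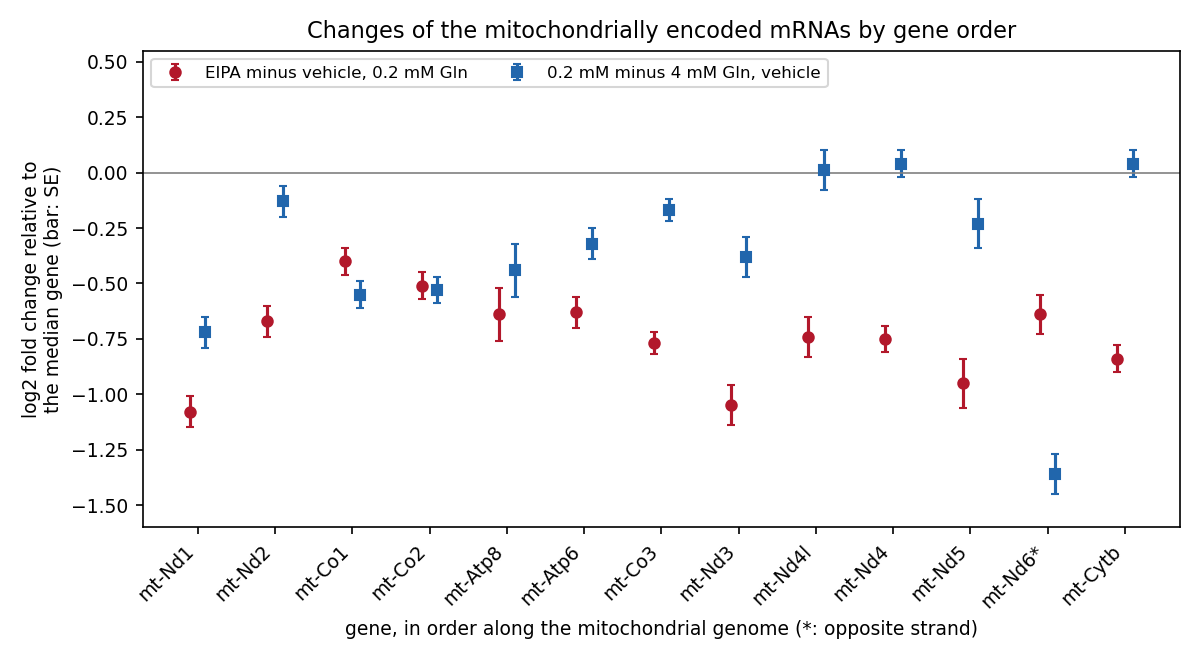
Log2 fold change relative to the median gene, with SE, of the 13 mitochondrially encoded mRNAs in gene order, for EIPA minus vehicle at 0.2 mM glutamine (circles) and 0.2 mM minus 4 mM glutamine in vehicle (squares). The EIPA values lie between -1.08 and -0.40, while the glutamine values range from -1.36 for mt-Nd6 to 0.04 for mt-Nd4 and mt-Cytb; both comparisons share the 0.2 mM vehicle libraries.

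2 pairs of these genes lie on a shared, overlapping mRNA, which gives a check of the TPM values of short genes. mt-Atp8, 204 bases long, was listed at 2.95 ± 0.30 times the TPM of mt-Atp6 (SD over 20 libraries), and mt-Nd4l, 297 bases long, at 2.01 ± 0.11 times that of mt-Nd4. The levels of these short genes per length are therefore uncertain, while the ratios were close between groups. 1 library was an exception: vehicle replicate 3 at 4 mM had an mt-Atp8 to mt-Atp6 ratio of 4.07 and 43606 TPM of mt-Atp8, where the other 4 of its group had 24380 to 28294 TPM.

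Summed over the 13 genes, mitochondrially encoded mRNA made up 5.18, 5.67, 5.40, 5.43 and 6.78% of TPM with EIPA and 8.55, 8.95, 8.97, 8.66 and 9.24% in the 0.2 mM vehicle. The 4 mM vehicle held 9.30, 10.5, 12.3, 9.80 and 9.93% and the IL-1a group 10.3, 10.4, 9.98, 9.14 and 10.1%. The highest value, 12.3%, came from vehicle replicate 3 with its high mt-Atp8; without mt-Atp8 the 4 mM vehicle held 7.33 ± 0.47% and the 0.2 mM vehicle 6.46 ± 0.16%, still without overlap. The 88 nuclear members together held a narrow share: 2.06 ± 0.03% with EIPA, 2.09 ± 0.02% in the 0.2 mM vehicle, 2.17 ± 0.03% with IL-1a and 2.09 ± 0.07% in the 4 mM vehicle (SD, n = 5 each).

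The ratio of mitochondrially encoded to nuclear mRNA within a complex does not depend on the scaling between libraries. Its log2 value in complex III was 0.31 ± 0.14 with EIPA and 1.16 ± 0.03 in the vehicle (SD, n = 5). The same pair of values was 1.27 ± 0.21 and 2.00 ± 0.06 in complex I, 1.82 ± 0.11 and 2.46 ± 0.03 in complex IV, and 1.70 ± 0.20 and 2.23 ± 0.09 in complex V. All 4 ratios were thus lower with EIPA. The groups were separate in all 4 complexes. For glutamine the differences were -0.21, -0.10, -0.24 and -0.15 in complexes I, III, IV and V, and only those of complex IV did not overlap. Vehicle replicate 3 at 4 mM was the highest of its group in all 4 complexes. Without it the differences became -0.15, -0.05, -0.20 and -0.01 in complexes I, III, IV and V. The sums weigh mRNAs by their abundance, and with the mean of log2(TPM + 1) over members the glutamine differences became -0.33 and -0.32 in complexes I and IV and -0.022 and -0.0015 in complexes III and V. No test was made of these summed values.

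**Figure D3:**
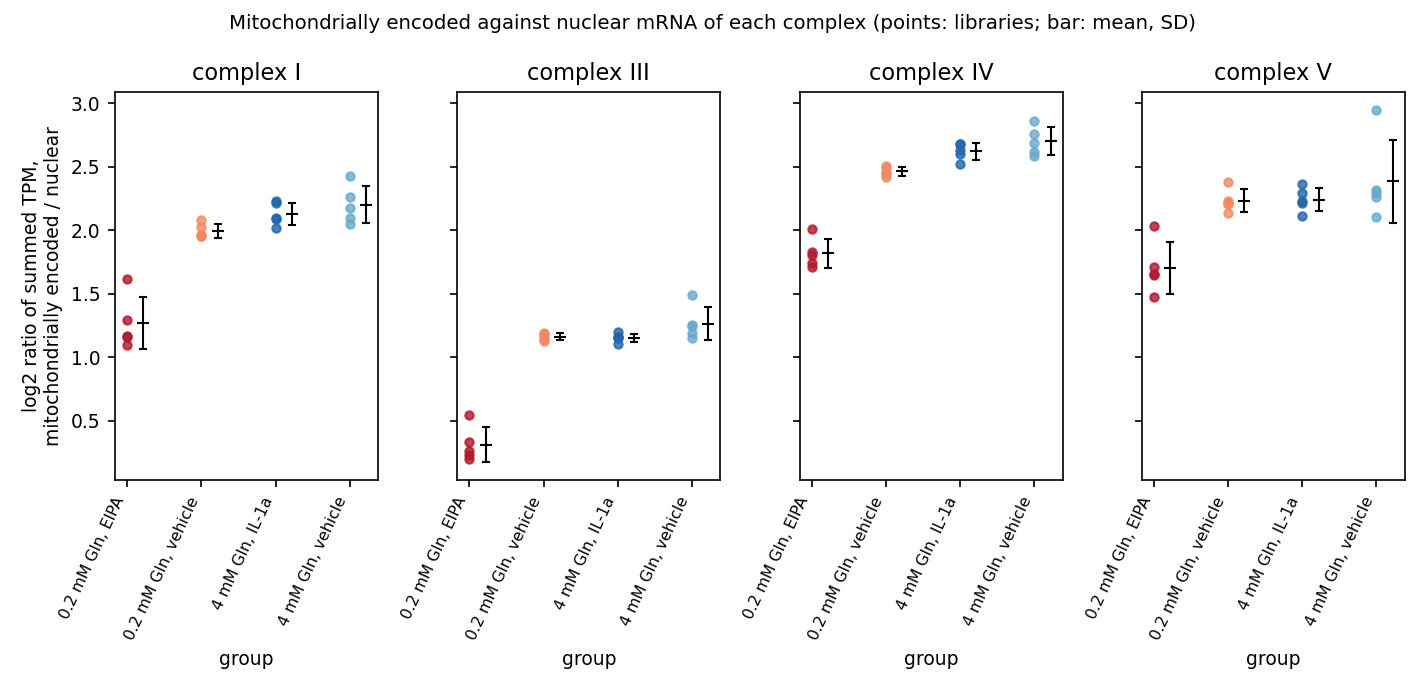
Log2 ratio of summed mitochondrially encoded to summed nuclear TPM in complexes I, III, IV and V, each library a point, with mean and SD beside. In all 4 complexes the 5 EIPA libraries lie below the 0.2 mM vehicle libraries, as in complex III with means of 0.31 and 1.16; replicate 5 is the highest of the EIPA group in each.

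The nuclear subunits did not move as a block. With EIPA 17 of the 82 tested were called higher and 21 lower, against 27.4% and 21.1% of all genes, and 44 were not called; their median was -0.05. With median-of-ratios scaling 13 were higher and 30 lower (23.5% and 24% of all genes). Rescaling TPM after removal of the 13 mitochondrially encoded genes gave 12 and 31 (22.4% and 25.3% of all genes). Without overlap of the groups 7 were higher and 16 lower (20% and 14.7% of all genes). For glutamine 32 were higher and 27 lower, against 45.4% and 27.9% of all genes, with a median of -0.13 relative to the median gene. With median-of-ratios scaling 18 were higher and 40 lower (35.9% and 35.5% of all genes). The glutamine counts include Cox6a2 as higher and Cox7a1 as lower, and the differences of these genes are given below without a test. Without overlap 25 were higher and 18 lower (37.2% and 22.7% of all genes).

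Start-site sequences are shown for 4 nuclear members called in at least 1 comparison below, since the nuclear subunits are known as targets of the transcription factors NRF1, GABP (of the ETS family) and YY1. RefSeq sequences (GRCm38.p6) matched 71 of the 88 nuclear members. Each line is the 100 bases before the annotated start, 5′ to 3′ on the gene's strand, with capitals marking the letters GCGCATGCG (NRF1) or CCGGAAGT (ETS) on either strand. They lie on the minus strand at chr6:50566570-50566669 for Cycs, chr5:108434400-108434499 for Atp5k, chr15:102671048-102671147 for Atp5g2 and chr4:116075071-116075170 for Uqcrh.
Cycs: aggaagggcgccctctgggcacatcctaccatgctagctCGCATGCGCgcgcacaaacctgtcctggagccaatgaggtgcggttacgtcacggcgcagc
Atp5k: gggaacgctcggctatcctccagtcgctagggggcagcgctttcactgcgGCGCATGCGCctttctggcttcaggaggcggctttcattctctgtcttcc
Atp5g2: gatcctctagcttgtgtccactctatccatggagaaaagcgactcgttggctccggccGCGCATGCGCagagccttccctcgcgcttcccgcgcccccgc
Uqcrh: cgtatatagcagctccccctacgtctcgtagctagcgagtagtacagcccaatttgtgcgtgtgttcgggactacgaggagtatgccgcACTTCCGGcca
The NRF1 letters begin 61 bases before the start in Cycs, 50 in Atp5k and 42 in Atp5g2, with overlapping matches on both strands in Atp5k and Atp5g2. The ETS letters begin 11 bases before the start in Uqcrh.

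In windows from 250 bases before to 50 after any annotated start of a gene, GCGCATGCG stood in 9 of the 71 matched members (12.7%) and in 2.61% of 17492 protein-coding genes, counting both strands. The looser GCGCNTGCG, which includes the first form, stood in 35.2% against 9.68%, the YY1 letters AAGATGGCG in 9.86% against 2.14% and the ETS letters CCGGAAGT in 7.04% against 5.69%. By complex, the looser letters stood in 27.3% of 33 matched subunits of complex I, 66.7% of 3 of complex II, 60% of 5 of complex III, 7.14% of 14 of complex IV and 60% of 15 of complex V. Of the 9 members with GCGCATGCG, EIPA raised 2, lowered 2 and left 5 uncalled (27.4% and 21.1% of all genes rose and fell), and low glutamine gave 1 higher, 5 lower and 3 not called (45.4% and 27.9% of all genes; limma). With median-of-ratios scaling the counts higher and lower were 2 and 3 for EIPA (23.5% and 24% of all genes) and 1 and 7 for glutamine (35.9% and 35.5%). A match describes these letters only.

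Complex I has 37 nuclear subunits. With EIPA 4 rose and 11 fell, against 27.4% and 21.1% of all genes. With median-of-ratios scaling 2 rose and 17 fell (23.5% and 24% of all genes). The largest fall was that of Ndufa10, an accessory subunit of the membrane arm. It measured 110.3, 88.2, 84.0, 108.0 and 98.4 TPM with EIPA and 155, 176, 153, 149 and 134 TPM in the vehicle. The groups did not overlap, with a log2 fold change of -0.65 (SE 0.12, n = 5 against 5, limma adjusted p = 0.00013). Ndufa12, an accessory subunit of the arm that projects into the matrix, fell by 0.37 (adjusted p = 4.7e-05, limma). Ndufv1, which binds FMN and takes the electrons from NADH, fell by 0.23 (adjusted p = 0.00048, limma).

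At 0.2 mM against 4 mM glutamine 16 nuclear subunits of complex I were higher and 8 lower. In the deposited TPM 45.4% and 27.9% of all genes were called, so these counts are near those of all genes. With median-of-ratios scaling 8 were higher and 14 lower (35.9% and 35.5% of all genes), so the share higher lay below that of all genes. Ndufv1 led the rises, from 127, 131, 120, 139.9 and 145 TPM at 4 mM to 197, 207, 203, 202 and 208 TPM at 0.2 mM. The groups were far apart, with a relative log2 fold change of 0.48 (SE 0.05, n = 5 against 5, limma adjusted p = 2.9e-10). The largest fall in the complex was that of Ndufb8, an accessory membrane subunit named after its values were seen, at a relative -0.64 (141 against 200.4 TPM, adjusted p = 4.3e-08, limma). Ndufa10 did not pass the test there (-0.08, adjusted p = 0.68, limma), with 4 mM vehicle values spread from 111 to 174 TPM.

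The 4 subunits of complex II, succinate dehydrogenase, split. Sdha, the flavoprotein that oxidises succinate, fell by 0.21 with EIPA (136 ± 2.06 against 158 ± 5.91 TPM, n = 5, limma adjusted p = 0.00013) and Sdhd, a membrane anchor, rose by 0.21 (237 against 205 TPM, with overlapping groups, adjusted p = 0.0086, limma). Sdhb, the iron-sulfur subunit, and Sdhc, the other anchor, were not called (-0.06 and 0.00). For glutamine Sdhb was lower by a relative log2 of -0.58 (112 against 152 TPM, adjusted p = 9.3e-08, limma) and Sdhd higher by 0.31, both without overlap of the groups. Sdhc was called higher at a relative 0.04 and lost the call with median-of-ratios scaling, where Sdha turned from an uncalled 0.05 in the deposited TPM to -0.09 (adjusted p = 0.022, limma).

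In complex III, EIPA raised Uqcrh, Uqcrfs1 and Uqcr11 and lowered Cyc1 and Uqcrb, where 27.4% and 21.1% of all genes rose and fell. The other 4 of the 9 nuclear subunits were not called. Uqcrh, the acidic hinge protein beside cytochrome c1, measured 319, 306, 290.2, 239 and 258 TPM with EIPA and 202, 216, 198, 196 and 199 TPM in the vehicle. All EIPA values were higher, with a log2 fold change of 0.47 (SE 0.07, n = 5 against 5, limma adjusted p = 1e-05). Uqcrfs1, the Rieske iron-sulfur protein, rose by 0.31 (adjusted p = 0.00036, limma). Cyc1, cytochrome c1, went the other way, by -0.36 (226 ± 5.05 against 290.1 ± 8.04 TPM, n = 5, limma adjusted p = 9.2e-07).

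Low glutamine gave 6 higher and 2 lower of these 9, against 45.4% and 27.9% of all genes. With median-of-ratios scaling 5 were higher and 3 lower (35.9% and 35.5% of all genes). Uqcrq, a small accessory subunit, was at 506, 506, 590.0, 549 and 570 TPM at 0.2 mM and at 300.29, 300.09, 329, 302 and 300.02 TPM at 4 mM. The relative log2 fold change was 0.69 (SE 0.06, n = 5 against 5, limma adjusted p = 7.2e-11), without overlap. Uqcr11, another small accessory subunit, was lower by a relative -0.69 (214.5 against 315.5 TPM, adjusted p = 4.6e-09, limma). Uqcrh was not called there (-0.27, adjusted p = 0.094, limma), and the call turned with the setting. It was lower with median-of-ratios scaling (adjusted p = 0.0016, limma), quantile normalisation (0.013), the mitochondrially encoded genes removed (0.042), only the groups of the comparison fitted (0.047) and vehicle replicate 3 at 4 mM left out (0.036).

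Cycs, the somatic cytochrome c that shuttles electrons from complex III to complex IV, measured 55.2, 52.5, 53.9, 48.9 and 48.2 TPM with EIPA and 68.6, 70.1, 77.5, 66.5 and 74.1 TPM in the 0.2 mM vehicle. The 4 mM vehicle held 49.7, 47.0, 46.9, 49.3 and 46.1 TPM. The 0.2 mM vehicle thus stood above both other groups with no overlap, at -0.46 for EIPA (SE 0.07, n = 5 against 5, limma adjusted p = 2.7e-05) and at a relative 0.43 for glutamine (SE 0.07, adjusted p = 4.5e-07).

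Complex IV was the one complex with a mitochondrially encoded fall and no called nuclear fall in the deposited TPM under EIPA (21.1% of all genes fell). Of its 14 tested nuclear subunits 4 rose (27.4% of all genes) and 10 were not called. With median-of-ratios scaling 1 was called lower (24% of all genes). The nuclear share of complex IV in TPM was 0.543 ± 0.015% with EIPA and 0.500 ± 0.013% in the vehicle (SD, n = 5), without overlap. Cox7a2l, a homologue of Cox7a2 known for joining complexes III and IV into supercomplexes, led the rises. It measured 345, 346, 335, 333 and 350.4 TPM with EIPA, 227, 244, 223, 230.3 and 245 TPM in the 0.2 mM vehicle and 156, 154, 167, 159 and 185 TPM in the 4 mM vehicle. The 3 groups formed separate steps. The log2 fold change was 0.55 with EIPA (SE 0.06, n = 5 against 5, limma adjusted p = 4.9e-07) and a relative 0.37 for glutamine (adjusted p = 2.8e-07).

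Subunits of complex IV that exist as tissue isoforms were measured side by side. Cox4i1, the ubiquitous form of subunit 4, rose with EIPA by 0.19 (968 against 845 TPM, adjusted p = 0.0025, limma), while Cox4i2 was listed at 0 in all 20 libraries, as were Cox7b2, Cox8b and Cox8c. Cox6a2, the form known from heart and skeletal muscle, stood far below Cox6a1 per length, at 3.91 against 481 TPM in the 0.2 mM vehicle. It was listed at 0.50, 0.28, 0.39, 0.41 and 0.94 TPM at 4 mM and at 2.97, 4.26, 3.53, 4.54 and 4.27 TPM at 0.2 mM. The groups were separate at a low level, with every 4 mM vehicle value under 1 TPM. Cox6a2 reached 1 TPM in 11 libraries and entered the fit mainly through the 0.2 mM groups, where it was high, so its difference is given without a test.

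Cox7a2 was lower at 0.2 mM by a relative -0.52 (adjusted p = 4.8e-07, limma) where Cox7a2l was higher. Cox7a1, the muscle form, did not exceed 2.2 TPM in any library, averaged 0.77 TPM and reached 1 TPM in 6 libraries. It may have entered the fit through the groups where it was higher, so its lower value at 0.2 mM is given without a test. Ndufa4, once counted with complex I and now with complex IV, was lower at 0.2 mM by a relative -0.53 (422 against 554 TPM, adjusted p = 1.6e-07, limma), and Ndufa4l2 averaged 0.097 TPM over the 20 libraries. Cox6b1 and Cox8a were not called with EIPA (0.16 and 0.12), and both passed without vehicle replicate 5 at 0.2 mM (limma adjusted p = 0.023 and 0.014). Cox8a also passed with the replicate number as a block (0.12, adjusted p = 0.036, limma).

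**Figure D4:**
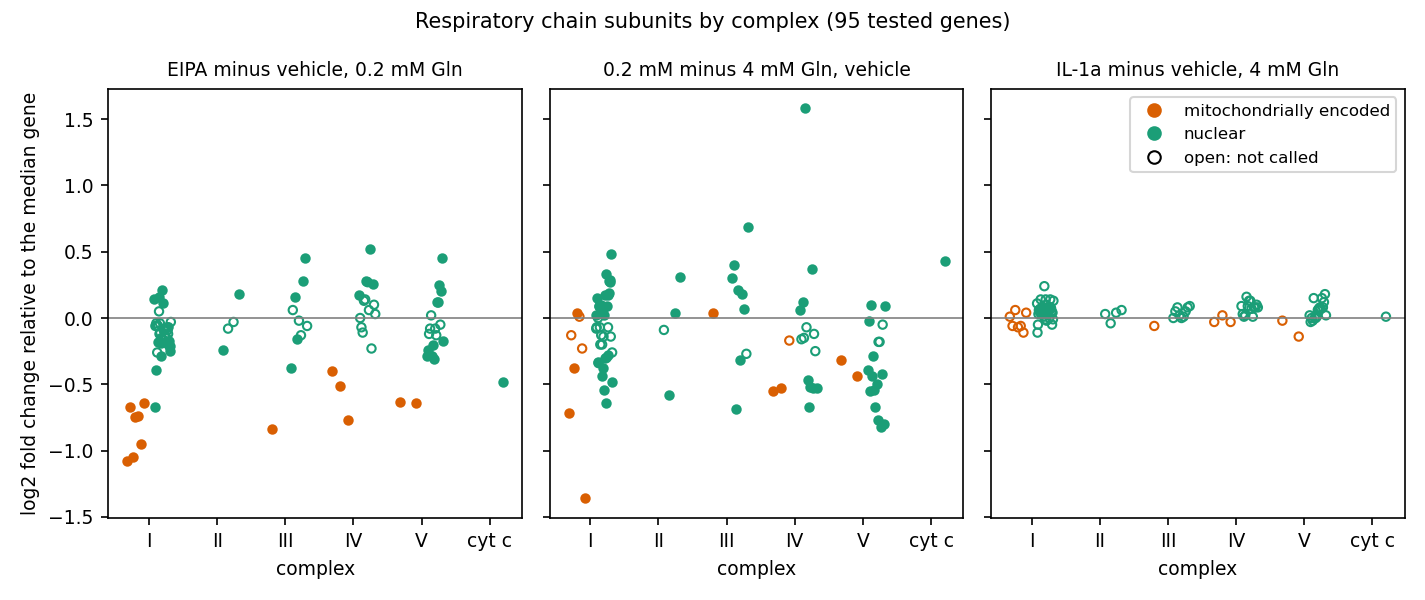
Log2 fold change relative to the median gene of the 95 tested members by complex, in 3 panels for EIPA, glutamine and IL-1a; filled points passed the test and open points did not. All mitochondrially encoded members are filled and below 0 under EIPA, nuclear members lie on both sides, complex V lies mostly below 0 for glutamine with a median of -0.42, and no point is filled for IL-1a. The filled points for glutamine include Cox6a2 and Cox7a1, whose differences are given in the text without a test.

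In complex V low glutamine gave 3 higher and 11 lower of 17 nuclear subunits, against 45.4% and 27.9% of all genes. With median-of-ratios scaling 0 were higher and 13 lower (35.9% and 35.5% of all genes). The median was -0.42 relative to the median gene. The nuclear share of complex V was 0.691 ± 0.006% of TPM at 0.2 mM and 0.754 ± 0.030% at 4 mM (SD, n = 5), without overlap. Atp5k, the small subunit e, measured 131.2, 105.9, 141.8, 128.8 and 131.4 TPM at 0.2 mM and 226, 200.1, 182, 207 and 215 TPM at 4 mM. All values at 0.2 mM were lower, with a relative log2 fold change of -0.82 (SE 0.07, n = 5 against 5, limma adjusted p = 5e-08). Atp5mpl, a small membrane subunit, gave -0.80 (adjusted p = 6.3e-07, limma) and Atp5h, subunit d of the peripheral stalk, -0.77 (adjusted p = 2e-08, limma).

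Atp5g1, Atp5g2 and Atp5g3 encode the same mature c subunit of the rotor ring. They were lower at 0.2 mM by a relative -0.54, -0.67 and -0.50, each without overlap. With EIPA Atp5g1 and Atp5g2 fell by 0.18 and 0.28 (limma adjusted p = 0.015 and 0.0087), and Atp5g3 was not called (-0.05, adjusted p = 0.4, limma). Because the 3 genes share coding sequence, reads may have been split between them.

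EIPA raised 5 and lowered 6 of the 17, against 27.4% and 21.1% of all genes (3 and 7 with median-of-ratios scaling, against 23.5% and 24%). Atp5mpl stood at 162, 158, 160.3, 159 and 161 TPM with EIPA and at 126, 131, 121, 102.5 and 98.5 TPM in the vehicle, a rise of 0.47 with no overlap (SE 0.09, n = 5 against 5, limma adjusted p = 0.00013). Atp5k rose by 0.27 (adjusted p = 0.005, limma). Atp5b, the catalytic beta subunit and the most abundant nuclear member (named after its values were seen), fell by 0.21 with EIPA (1655 ± 84 against 1919 ± 55 TPM, n = 5, limma adjusted p = 0.00074).

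**Figure D5:**
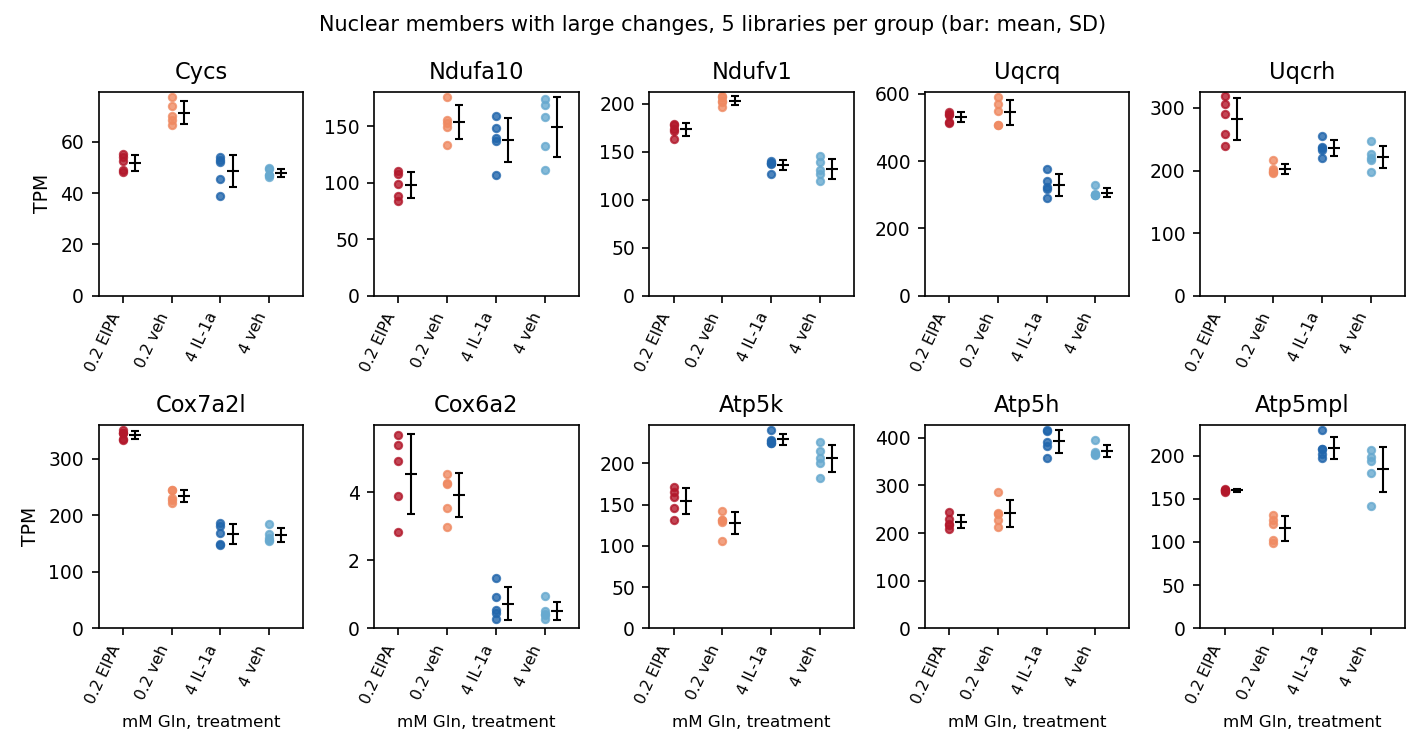
TPM of 10 nuclear members in the 4 groups, each library a point, with mean and SD beside and axes starting at 0. Cycs is highest in the 0.2 mM vehicle (71.4 TPM), Cox7a2l rises in steps from the 4 mM groups to EIPA (164 to 342 TPM), and Atp5k, Atp5h and Atp5mpl are lower at 0.2 mM than at 4 mM in the vehicle groups.

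IL-1a at 4 mM glutamine left all 95 members uncalled, in a comparison in which limma called 0.283% of all genes (35 of 12350, 0.259% higher and 0.0243% lower). Median-of-ratios scaling, which called 0.267% higher and 0.0324% lower, called 0 members as well. At an unadjusted p under 0.05 there were 8 nuclear and 0 mitochondrially encoded members (4 and 0 with median-of-ratios scaling). The mitochondrially encoded log2 fold changes ran from -0.13 to 0.06 and the nuclear ones from -0.10 to 0.25, where 74 of 82 were above 0 with a median of 0.06 (67 of 82 with median-of-ratios scaling). The median gene stood at 0.01. The shares of all genes at that unadjusted p and above 0 are not given here, so neither count is read as a response to IL-1a. For mt-Nd1 the 95% interval was -0.12 to 0.16 and for Cycs -0.12 to 0.16. The nuclear share of TPM was 2.23, 2.17, 2.15, 2.14 and 2.16% with IL-1a and 2.13, 2.13, 1.97, 2.12 and 2.10% in the vehicle. The groups did not overlap, by a small margin, and vehicle replicate 3, which had the high mt-Atp8, was the lowest. The nuclear share of complex IV did not overlap either (0.551 ± 0.011 against 0.521 ± 0.012%, SD, n = 5). Ndufb2, an accessory subunit of complex I, was the one member whose groups did not overlap (95.7 against 80.7 TPM, 0.25, 95% interval 0.06 to 0.44, limma adjusted p = 0.65), where 0.777% of all genes were higher and 0.599% lower without overlap.

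Genes that serve the chain were described from 12 lists by role, to be read against 45.4% of all genes called higher and 27.9% lower for glutamine, and 27.4% and 21.1% for EIPA. Counts with median-of-ratios scaling are to be read against 35.9% and 35.5% for glutamine, and 23.5% and 24% for EIPA. For the machinery that copies and transcribes mitochondrial DNA, low glutamine gave 16 higher and 0 lower of 17 (13 and 0 with median-of-ratios scaling), with a list median of 0.38 relative to the median gene. Primpol, a primase-polymerase, was higher by a relative 1.53 (25.8 against 7.44 TPM, adjusted p = 5.9e-11, limma). With EIPA 4 of the 17 rose and 3 fell, with Mterf4, of the mitochondrial transcription termination factor family, at 0.43 and Tfb1m, the methyltransferase of the small ribosomal RNA, at -0.62 (limma adjusted p = 0.00015 and 2.9e-05). For the processing and decay of mitochondrial RNA, low glutamine gave 11 higher and 4 lower of 18 (7 and 5 with median-of-ratios scaling), led by Lrpprc, which stabilises mitochondrial mRNAs, at a relative 0.50, with Rexo2, an oligoribonuclease, at -0.56. With EIPA 1 rose (Hsd17b10, part of RNase P, 0.24) and 5 fell, led by Elac2, which cuts tRNA 3′ ends from the polycistron, at -0.55.

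Regulators of mitochondrial biogenesis gave 6 higher and 0 lower of 9 tested at low glutamine, led by Myc, a transcription factor of growth, at a relative 1.48 (312 against 98.7 TPM, adjusted p = 3.2e-09, limma). With EIPA 2 rose and 4 fell: Ppargc1a, the coactivator PGC-1 alpha, rose by 1.27 from 1.75 to 5.58 TPM (adjusted p = 5.9e-08, limma) and Myc fell by 0.59. Of the assembly factors, low glutamine gave 11 higher and 3 lower of 17 for complex I, 3 and 1 of 4 for complex II, 5 and 1 of 6 for complex III, 10 and 3 of 23 for complex IV and 4 and 1 of 6 for complex V. With median-of-ratios scaling these became 10 and 5, 3 and 1, 2 and 1, 7 and 4, and 1 and 1. The 1 lower of complex II, Sdhaf4, lost its call without any one of 8 libraries (limma adjusted p = 0.058 to 0.12). The largest rise was that of Atpaf2, a chaperone of the F1 alpha subunit, at a relative 0.89 (84.2 against 40.7 TPM, adjusted p = 5.3e-13, limma). With EIPA the counts were 2 and 2, 1 and 0, 0 and 3, 4 and 7, and 3 and 1 (0 and 0 for complex II and 3 and 7 for complex IV with median-of-ratios scaling). The 1 higher of complex II, Sdhaf2, also lost its call without EIPA replicate 2 or vehicle replicate 4 (limma adjusted p = 0.06 and 0.072), and the 1 lower of complex V, Tmem242, without any one of 8 libraries (0.053 to 0.1). Lyrm7, which loads the Rieske protein Uqcrfs1 into complex III, fell by 0.93 (1.38 against 3.49 TPM, adjusted p = 0.00017, limma), and Cox18, which inserts mt-Co2 into the membrane, fell by 0.83 (19.97 against 36.3 TPM, adjusted p = 1.1e-09, limma). IL-1a called no gene of the 12 lists.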

How the data were processed

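Paired reads of 75 bases came from polyadenylated RNA, per the labels' protocols. The authors deposited TPM, made with RSEM on mm10 per the submitters' processing notes; no source used here names the aligner, the annotation release or the versions. The table holds 32285 genes in 20 libraries, 5 per group, each summing to between 999999.47 and 1000000.84, so depth is unknown. TPM is no count, so log2(TPM + 1) was tested with limma 3.58.1 (R 4.3.3) with an intensity trend, in one model of the 4 groups without a replicate block, over the 12350 genes that reached 1 TPM in 5 or more libraries. Benjamini-Hochberg adjusted p under 0.05 made a call. The procedure was tested on simulated data with independent noise and few changed genes. Far more genes were called in the EIPA and glutamine comparisons, so that test does not give the error rate there. Fold changes on this scale understate changes of low genes. Shares and ratios were described without a test. Named genes are the mitochondrially encoded members, the Sdh genes, Cyc1, Cycs, isoform sets, the 4 largest called rises and falls per comparison among nuclear members, and the largest called rise and fall per list; other names were chosen after their values were seen. The members and lists were chosen with earlier results of these data known. Alternatives were another pseudocount, filters, scalings, the trend, the groups fitted, the block, and libraries left out. A planned comparison of protein sequences was not made, and those sequences are not used here.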

Additional observations from a re-analysis of the deposited data

Results flagged for a closer look

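25 of 216 groups of 5 values held a library far from the other 4, by a gap of more than 0.71 of the group's range; chance gives about 1 in 20. EIPA replicate 5 was the highest of its group for mt-Nd1 (2676 TPM), mt-Nd3 (2152), mt-Cytb (3723), mt-Co2 (8452), mt-Co3 (5915) and mt-Atp6 (6675), and for the mitochondrially encoded share without mt-Atp8 (4.81%). Vehicle replicate 3 at 4 mM was the highest of its group for mt-Atp8 (43610 TPM, 4.36% of TPM), mt-Nd6 (252.5 TPM), Uqcrq (329 TPM) and the log2 ratio of mitochondrially encoded to nuclear mRNA in complexes III (1.49) and V (2.95). The same library was the lowest for the share of all nuclear members (1.97%), of nuclear complex I (0.501%) and complex IV (0.500%) and for Uqcr11 (285 TPM).

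Vehicle replicate 5 at 0.2 mM was highest for Sdha (169 TPM) and Cox6b1 (429 TPM) and lowest for Uqcrfs1 (124 TPM), and vehicle replicate 5 at 4 mM was highest for Atp5h (395 TPM). Among the IL-1a libraries, replicate 1 was highest for the nuclear complex I share (0.586%), replicate 3 lowest for Ndufv1 (126.5 TPM), replicate 4 lowest for mt-Co2 (12300 TPM) and replicate 5 highest for Atp5k (240.4 TPM).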

How the results depend on the processing

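Log2 fold changes in this section are not relative to the median gene. Replicate numbers were not taken to pair libraries, since the labels do not say that they do. Same-number correlations were 0.062 to 0.322 for EIPA, -0.281 to 0.601 for IL-1a and 0.049 to 0.167 for glutamine. They exceeded the highest other-number correlation in replicates 1, 3, 4 and 5 for EIPA, 1, 2, 3 and 5 for glutamine and 4 and 5 for IL-1a. Whether same-numbered libraries were handled together is not stated. With a replicate block the nuclear members called were 18 higher and 25 lower for EIPA and 33 and 28 for glutamine. All 13 mitochondrially encoded members were lower for EIPA, 2 were higher and 7 lower for glutamine, and IL-1a called 0 members. For fits with a block or with libraries left out, the shares of all genes called are not given here. Those counts therefore show only how far the calls of members moved. Cox8a was called under the block for EIPA and for glutamine (0.12 and -0.11, adjusted p = 0.036 for each, limma). Median-of-ratios scaling changed the glutamine counts to 0 mitochondrially encoded and 18 nuclear members higher (35.9% of all genes). It turned Sdha to -0.09 and Vdac3 to -0.03 (adjusted p = 0.022 and 0.6, limma). Quantile normalisation gave 3 mitochondrially encoded members lower for glutamine (32.3% of all genes), with mt-Co3 at 0.13 (adjusted p = 0.042, limma). mt-Co2, mt-Nd3 and mt-Atp6 were no longer called, and mt-Co1 stood at 0.01 for EIPA. mt-Atp8 stood at 0.00 for glutamine, where this method leaves a gene of unchanged rank an unchanged value. The 2 mitochondrially encoded members higher for glutamine became 1 without the 3 libraries that stood apart, and 1 to 2 with one library left out at a time. The glutamine difference of the log2 ratio was -0.325 in complex I and -0.321 in complex IV from mean logs, and -0.417 in complex I without mt-Nd6 and the overlapping pairs. Without vehicle replicate 3 at 4 mM it was -0.15, -0.047, -0.197 and -0.0086 in complexes I, III, IV and V. The cause was not tested. With one library left out, the EIPA counts of nuclear members were 13 to 17 higher and 19 to 22 lower. Depth cannot be judged from TPM, and low genes such as Cox6a2 and Cox7a1 are limited most.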

Other observations

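4 lists of neighbouring mitochondrial functions were not described above. For glutamine 45.4% of all genes were called higher and 27.9% lower. With median-of-ratios scaling these shares were 35.9% and 35.5% for glutamine, and 23.5% and 24% for EIPA. Of 14 enzymes of the TCA cycle, which supplies NADH and succinate to complexes I and II, EIPA lowered 9 and raised 1 (limma, against 21.1% and 27.4% of all genes), with Ogdh, of the oxoglutarate dehydrogenase complex, at -0.48 (adjusted p = 3.7e-07, limma) and Sucla2, of succinyl-CoA ligase, at 0.16. Low glutamine gave 4 higher and 7 lower (2 and 9 with median-of-ratios scaling), with Idh2, the NADP-linked isocitrate dehydrogenase, at -1.08 and Dlst, of the oxoglutarate dehydrogenase complex, at 0.18, both relative to the median gene. Of 15 chaperones and proteases, EIPA lowered 8 and raised 2 (8 and 1 with median-of-ratios scaling), with Htra2, a serine protease, at -0.53 and Hspe1, the co-chaperonin, at 0.31. Low glutamine gave 7 higher and 4 lower (6 and 5 with median-of-ratios scaling), with Lonp1, the protease of the matrix, at a relative 1.23 (333 against 127 TPM, adjusted p = 8.8e-11, limma) and Oma1, a stress-activated protease, at -0.64.

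Of 6 tested carriers and channels of adenine nucleotides and phosphate, EIPA lowered 2 and raised 1, against 21.1% and 27.4% of all genes. Slc25a4, an ADP/ATP carrier, was at -0.40 and Slc25a3, the phosphate carrier, at 0.28 (limma adjusted p = 1.8e-06 and 5.5e-05). Low glutamine gave 1 higher and 3 lower (0 and 4 with median-of-ratios scaling, against 35.9% and 35.5%), where 45.4% and 27.9% of all genes were called in the deposited TPM. The 1 higher, Vdac3, an outer membrane channel, lost its call without any one of 6 libraries (limma adjusted p = 0.051 to 0.11) and without the 3 libraries that stood apart (0.098). Of 8 tested mitophagy genes EIPA raised 5 and lowered 1 (5 and 2 with median-of-ratios scaling), with Bnip3, a mitophagy receptor, at 0.60 (32.0 against 20.7 TPM, adjusted p = 8.4e-05, limma) and Fkbp8 at -0.20. Low glutamine gave 5 higher and 2 lower under both scalings, with Sqstm1, the autophagy receptor p62, at a relative 1.43 and Fundc1, another receptor, at -0.82.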
